A study of Homo sapiens with 8 samples.

Results

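The UBE2 genes encode the E2 ubiquitin-conjugating enzymes. All protein-coding genes whose symbol starts with UBE2 and a further letter were taken, which gave 35 genes of 57736 in the count files. They were proposed because the mRNA of UBE2E2 was among those most enriched with HuR, so the HuR enrichment of these genes is described and not tested. Of the 35, 32 had at least 50 counts in 1 or more libraries. UBE2L5, UBE2QL1 and UBE2U did not, with 0 to 2 counts per library. Another 61 UBE2 symbols were left out because they were not protein-coding in both annotations used, most of them pseudogenes.

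The RNA came from IMR90, a human fetal lung fibroblast line. An RNA-seq experiment held 1 library of cells with ADAR1 knocked down (KD) and 1 of control cells (Ctrl). A second experiment immunoprecipitated HuR from shADAR1, shHuR and shControl cells, and each of these 3 lines gave 1 precipitate and 1 input library. ADAR1 (gene ADAR) edits adenosine to inosine in double-stranded RNA, and HuR (gene ELAVL1) binds U-rich and AU-rich stretches, mostly in the 3′ untranslated regions (3′UTRs) of mRNAs. How the RNA-seq knockdown was made, the shRNA sequences and the number of cultures behind each library are not given in the sources used here. Since each group is 1 library, no difference between 2 libraries can be set against replicate spread, and every 95% interval below covers counting error only.

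Ubiquitin reaches its substrates in a relay. An E1 enzyme activates it, an E2 carries it as a thioester, and an E3 ligase brings the loaded E2 to the substrate. The E2 largely decides which chain is built. UBE2N with its inactive partners UBE2V1 and UBE2V2 builds chains through lysine 63 of ubiquitin, which act in DNA repair and in inflammatory signalling. UBE2C and UBE2S work with the anaphase-promoting complex (APC/C) in mitosis. Others carry related modifiers instead: UBE2M and UBE2F carry NEDD8, and UBE2L6 carries ISG15.

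The libraries held 28390935 to 50711218 counts. The targeted genes were lower where the labels say so: the log2 ratio of ADAR was -2.81 for the RNA-seq KD and -1.55 for the shADAR1 input, and ELAVL1 had -2.72 in the shHuR input, while ADAR stood at -0.34 there. All 8 fibroblast markers had at least 50 counts in every library. Leukocyte markers summed to 1 to 152 counts per library, with the 152 in the shADAR1 input all from CD14, epithelial markers to 24 to 778 counts, and the 3 endothelial markers found to 142 to 3965 counts. Most of these endothelial counts were from TEK, with 133 to 3930 per library, where CDH5 had 0 and VWF 4 to 70. Levels below are CPM, read counts relative to library size, with library sizes adjusted by the trimmed mean of M values (TMM) within each experiment's table. They were scaled separately for the RNA-seq and for the precipitation experiment and are compared only within one of them.

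The HuR precipitates separated the E2 mRNAs widely, from UBE2N at the top to UBE2S at the bottom. Enrichment is the log2 ratio of the precipitate to the input of the same line. Its mean over the 3 lines ran from 4.02 for UBE2N to -2.42 for UBE2S among the 32 members, with a median of 0.301, against -0.412 over 11165 protein-coding genes. A wide spread was not particular to the members. In shControl they ran from -3.52 to 4.16, where all genes with enough counts ran from -7.42 to 9.48. No mock precipitate was among the samples, so mRNA bound by HuR and mRNA recovered unspecifically cannot be told apart by enrichment. The stretches of 30 bases richest in U in the 3′UTRs of UBE2N, UBE2E2 and UBE2D4, which are 3 of the 4 most enriched members, and of the 3 least enriched are printed here because HuR is known for binding such sequence. They come from the GENCODE 29 transcript (GRCh38) with the longest annotated 3′UTR of each gene. They are written as DNA of the mRNA strand, with runs of 5 or more T (U in the RNA) in capitals.
UBE2N: TTTTTTTTTTTTTTTTTTTTTTTTTTTTTT
UBE2E2: tggttttgTTTTTTTTgttgttgtttattt
UBE2D4: ccTTTTTTTTTTTTTTTTTTTTTTTTTTTT
UBE2E1: TTTTTgtttaaaacaaaattggaatttgtt
UBE2L6: cattcaTTTTTcccttcttaggttgttagt
UBE2S: tgctttgtgctaaagattggTTTTTccctt

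The UBE2N stretch lies at chr12:93406276-93406305 on the minus strand and begins at base 3734 of the 3′UTR, inside an exon of NUDT4 on the opposite strand. That of UBE2E2 is at chr3:23590180-23590209 (plus strand, 3′UTR base 349) and that of UBE2D4 at chr7:43954256-43954285 (plus strand, base 1561). UBE2E1 has its richest stretch at chr3:23890970-23890999 (plus strand, base 364), UBE2L6 at chr11:57552236-57552265 (minus strand, base 93) and UBE2S at chr19:55400830-55400859 (minus strand, base 577). The stretches of UBE2N, UBE2E2 and UBE2D4 held 23 to 30 U, against 15 or 16 U in those of UBE2E1, UBE2L6 and UBE2S. These members were taken from the ends of the order, and others did not separate in this way. Depleted UBE2O and UBE2F had stretches with 25 and 21 U, and enriched UBE2M, UBE2G2 and UBE2B had 19 each. The first 3 genes also have longer 3′UTRs, of 1962 to 4349 bases against 702 to 1691. Each is the richest of its transcript and not a mapped binding site. That transcript has the longest annotated 3′UTR and need not be the one present in these cells. For UBE2N, count and FPKM implied a length of 1.02 kb in the RNA-seq KD and 1.11 in Ctrl, against a 3′UTR of 4349 bases. For UBE2D4 they implied 1.465 and 1.408 kb, against 3441 bases, and for UBE2E2 1.107 and 1.07 kb, against 1962. The same holds for depleted UBE2S, with 0.794 and 0.755 kb against 1691 bases. UBE2E1 and UBE2L6 had implied lengths above those of their 3′UTRs. Whether the mRNAs present held these stretches was not tested.

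UBE2N, the lysine 63 enzyme, was the most enriched member, with rank 26 of the 11165 protein-coding genes. It had 438, 1989 and 1389 CPM in the shADAR1, shHuR and shControl precipitates, against 38.7, 94.6 and 77.5 in the inputs of the same lines. The enrichment was 3.50 in shADAR1 (interval 3.42 to 3.58), 4.39 in shHuR (4.35 to 4.44) and 4.16 in shControl (4.12 to 4.21) on the log2 scale. All 3 precipitates stood far above all 3 inputs, and UBE2N was least enriched in shADAR1. UBE2N shares 39.5% of its exon length with the antisense gene NUDT4, whose own enrichment was 2.66, 3.20 and 3.17 in the 3 lines in the same sequence. The strand setting of the counting is not given in the sources used here, so reads from the shared exons cannot be told apart.

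UBE2E2, an E2 of the UBE2E group that was used to propose the family, ranked 217. Its precipitates held 235, 183 and 319 CPM in shADAR1, shHuR and shControl, against 23.4, 25.2 and 20.8 in the inputs. Its enrichment was 3.32, 2.86 and 3.93 in these lines. The close relatives UBE2E1 and UBE2E3 went the other way. UBE2E1 had 19.8, 34.6 and 33.9 CPM in the precipitates and 79.6, 108.8 and 55.1 in the inputs, and UBE2E3 had 25.8, 15.3 and 45.4 in the precipitates and 56.0, 35.8 and 71.3 in the inputs. Their mean log2 enrichment was -1.45 and -0.998, against 3.37 for UBE2E2. The precipitates of UBE2E1 and of UBE2E3 each lay below the input of their own line in all 3 lines. The 3′UTR of UBE2E2 has 1962 bases and 24 runs of 5 U, counting overlapping ones, that of UBE2E1 has 710 bases and 2 such runs, and that of UBE2E3 has 553 bases and 0. The whole length implied by count and FPKM for UBE2E2 was shorter than this 3′UTR, at 1.107 kb in KD and 1.07 in Ctrl.

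UBE2W, which attaches ubiquitin to protein N-termini, came next with a mean of 3.10 (rank 387). It had 342, 524 and 298 CPM in the shADAR1, shHuR and shControl precipitates, against 48.1, 66.2 and 26.7 in the inputs. UBE2D4, of the promiscuous UBE2D group, followed at 2.99 (rank 473), with 77.2, 81.9 and 141 in the precipitates against 11.9, 11.03 and 13.4 in the inputs. UBE2M, the main NEDD8 carrier, had 238, 459 and 260 in the precipitates and 71.7, 79.1 and 63.9 in the inputs, a mean log2 enrichment of 2.10. All 3 members were enriched in each line.

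UBE2S, which extends chains on APC/C substrates, was the most depleted, with 8.26, 12.7 and 7.59 CPM in the shADAR1, shHuR and shControl precipitates, against 47.3, 30.1 and 87.7 in the inputs. Its enrichment was -2.51, -1.24 and -3.52. UBE2L6, the ISG15 carrier, had 10.3, 7.26 and 7.85 in the precipitates and 72.6, 26.7 and 39.98 in the inputs, with a mean of -2.34. Each of these precipitates lay below its input. With trends over transcript length and GC content removed, the enrichment of UBE2E3 in shControl turned to 0.02.

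**Figure D1:**
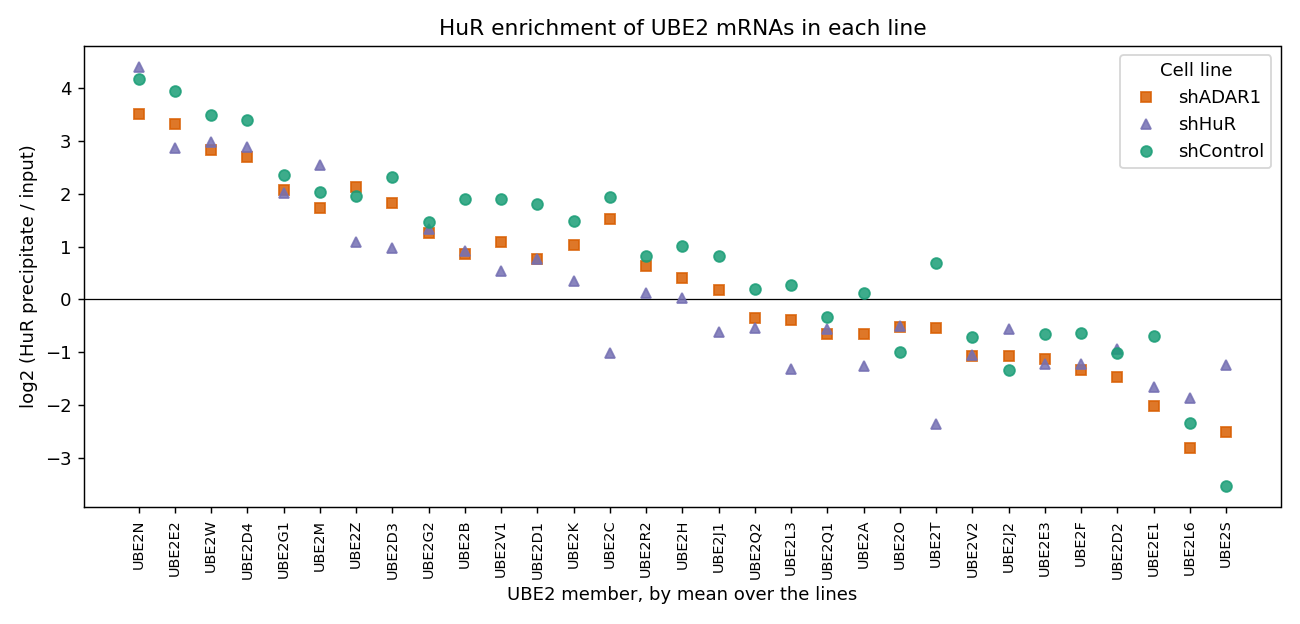
Log2 ratio of HuR precipitate to input (y axis) for members with enough counts, sorted by their mean over the lines (x axis); each symbol is 1 line (shADAR1, shHuR, shControl) and 1 pair of libraries. UBE2N, UBE2E2, UBE2W and UBE2D4 lie at 2.70 or above in all 3 lines, UBE2S and UBE2L6 at -1.24 or below in all 3, and UBE2C and UBE2T are spread most.

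Counted at 2-fold, 12 members were enriched and 9 depleted in shADAR1, 8 and 11 in shHuR, and 15 and 4 in shControl. Among all genes with enough counts, 30% were enriched and 37.5% depleted 2-fold in shADAR1 (67.5% in either direction), 25.5% and 25.3% in shHuR (50.8%), and 30.7% and 38.3% in shControl (69.1%). Since the members were proposed from this contrast, nothing is read from these counts. Scaling by total counts instead of TMM would lower every log2 enrichment by 0.863 in shADAR1, 0.999 in shHuR and 0.875 in shControl, and would bring the members above and below 2-fold in shADAR1 to 6 and 15. The median over all genes in shADAR1 would then be -1.112, against -0.258 with TMM. By role, the E2s of endoplasmic-reticulum-associated degradation (ERAD) were split: UBE2G1 (mean 2.14) and UBE2G2 (1.35) were above 0, UBE2J1 was near 0 (0.13), and UBE2J2 was below (-0.98), though above 0 in shADAR1 (0.10) and shControl (0.44) once trends over transcript length and GC content were removed. Within the UBE2D group, UBE2D1 (1.11), UBE2D3 (1.70) and UBE2D4 were above 0 and UBE2D2 (-1.14) below. Of the lysine 63 partners, UBE2V1 stood at 1.17 and UBE2V2 at -0.94. The DNA repair pair UBE2A and UBE2B stood at -0.60 and 1.22. Each of these groups had members on both sides of 0.

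Runs of U in the 3′UTR went with enrichment across the members. The number of runs of 5 U had a Spearman correlation of 0.771 with the mean enrichment over the 32 members and of 0.722 over 11037 protein-coding genes, and the longest run of U one of 0.817 and 0.691. Overlapping runs were counted, so that 1 longer run counts several times. The number of runs and the longest run are therefore not separate measures. Runs of 5 U per kilobase had 0.641 over the members, 3′UTR length 0.496, the number of ATTTA motifs 0.434 and ATTTA per kilobase 0.008, against 0.584, 0.570, 0.534 and 0.298 over the protein-coding genes. The base composition of the 3′UTR went with enrichment more weakly. Its percentage of U had 0.243 over the members, that of A and U 0.068, and the number of TTTATTT motifs 0.278. Over the protein-coding genes these had 0.374, 0.309 and 0.517. These are descriptions across genes, which share the same 6 libraries and are not replicates, and the features were chosen with the enrichment known. The longest run was 30 U in UBE2N, 35 in UBE2W, 28 in UBE2D4 and 9 in UBE2E2, against 5 in UBE2S, UBE2L6 and UBE2E1 and 4 in UBE2E3. UBE2M was enriched with a 3′UTR of 377 bases that has a run of 13 U. UBE2V2 was depleted with a 3′UTR of 3880 bases and 23 runs of 5 U, counting overlapping ones, and its longest run of U has 8. UBE2O (mean -0.67) was depleted with a run of 21 U. The motifs were searched on the mRNA strand only, and a match is a description of the sequence. Each 3′UTR is the longest annotated for its gene, and whether that form was present in these cells was not tested.

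**Figure D2:**
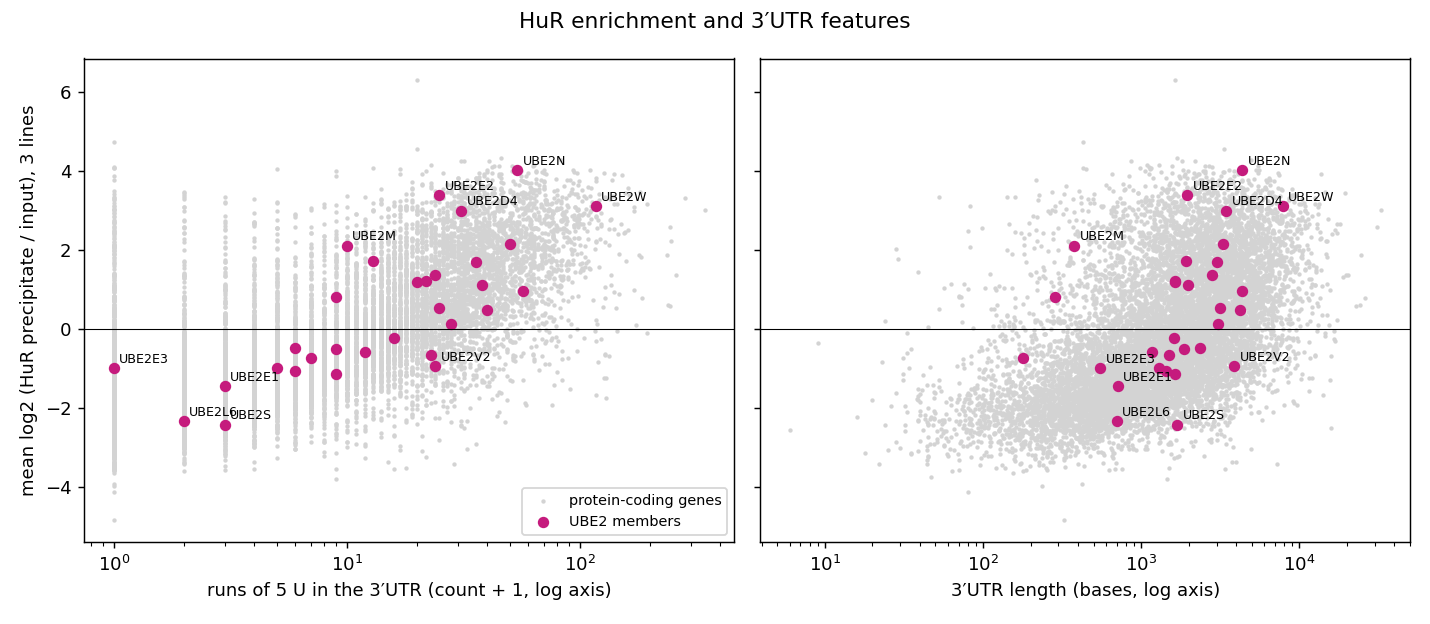
Mean log2 HuR enrichment over the 3 lines (y axes) against the number of runs of 5 U in the 3′UTR plus 1 (left, log axis) and the 3′UTR length in bases (right, log axis); grey points are protein-coding genes and coloured points UBE2 members. Counting overlapping ones, UBE2N, UBE2W, UBE2E2 and UBE2D4 have 24 to 116 runs and UBE2S, UBE2L6, UBE2E1 and UBE2E3 have 0 to 2.

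Enrichment of most members was lower in the shHuR and shADAR1 lines than in shControl. Relative to shControl, 2 members were at least 1.5-fold higher and 18 lower in shHuR, where 39.4% of all 12468 genes were higher and 23.5% lower. In shADAR1, 1 was higher and 15 lower, where 19.7% of 12641 genes were higher and 14.2% lower. The median difference over the members was -0.718 in shHuR and -0.511 in shADAR1, against 0.255 and -0.03 over all genes. Both comparisons use the same shControl libraries, and both use the enrichment from which the family was proposed, so no test is given. Of the 12 members with a mean log2 enrichment of at least 1, 6 were lower in shHuR and 7 in shADAR1, with 0 higher in either. Among all genes in that range, 30.5% were lower in shHuR and 12.6% in shADAR1. The members' medians in that range were -0.691 and -0.629, against -0.132 and -0.127 over all genes.

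UBE2E2 was less enriched in both lines, by -1.07 in shHuR (interval -1.20 to -0.94) and by -0.61 in shADAR1 (-0.75 to -0.48). UBE2N differed by 0.23 in shHuR (0.17 to 0.29) and by -0.67 in shADAR1 (-0.76 to -0.58), and NUDT4 by 0.03 and -0.52. UBE2L3 (-1.59), which serves HECT and RING-between-RING ligases, UBE2J1 (-1.43), UBE2A (-1.38), UBE2V1 (-1.36) and UBE2D3 (-1.34) had lower enrichment in shHuR with at least 802 counts in each library used. In shControl their enrichment was 0.27, 0.82, 0.12, 1.90 and 2.31. Such a difference also holds the change in the input. UBE2L3 had 51.8 CPM in the shHuR precipitate against 125.6 in shControl. UBE2B and UBE2E1 were called lower too, with precipitates of 107.6 against 101.0 and 34.6 against 33.9 CPM. Their inputs had 57.1 against 27.2 and 108.8 against 55.1. UBE2T (-3.04) and UBE2C (-2.95) had larger differences there that rest on 8 and 13 counts in the shHuR precipitate. UBE2S (2.28 in shHuR and 1.02 in shADAR1) was higher in both lines, and UBE2J2 (0.77) in shHuR.

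**Figure D3:**
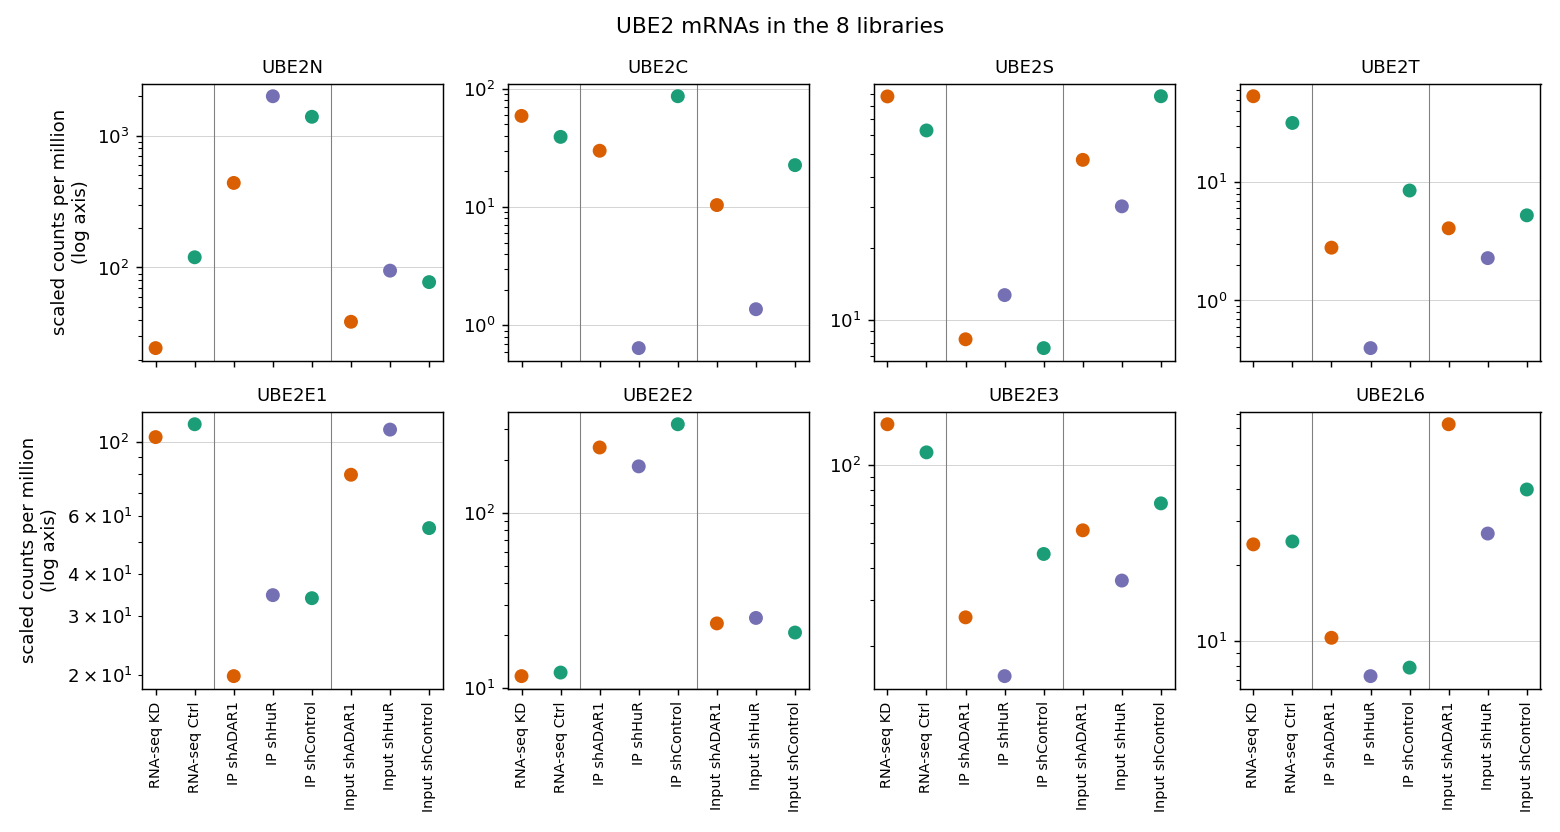
TMM-scaled CPM (y axes, log scale) of 8 members in each of the 8 libraries (x axes), with 1 point per library; the grey lines separate the RNA-seq pair, the HuR precipitates (IP) and the inputs, and the RNA-seq pair was scaled separately. UBE2N is low in the RNA-seq KD and in the shADAR1 input and precipitate, UBE2C stands at 1.37 in the shHuR input, and UBE2E2 is above its inputs in every precipitate where UBE2E1 and UBE2E3 are below.

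In the RNA-seq KD, UBE2N was the only member that differed 2-fold from Ctrl. It had 1248 counts in the KD library and 4653 in the Ctrl library, or 24.5 against 119.5 CPM. That is 4.88-fold lower (log2 ratio -2.29, interval -2.38 to -2.20), and -2.15 with the deposited FPKM. NUDT4, which shares exons with it, stood at 0.36. In the other experiment UBE2N had 1444 counts in the shADAR1 input and 4044 in the shControl input (38.7 against 77.5 CPM), a log2 ratio of -0.999 (-1.09 to -0.91) that lies just short of 2-fold. In the shHuR input it stood at 0.29 (0.23 to 0.35). Both ADAR1 knockdown libraries were therefore below their controls, and the shHuR input was not.

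Of the 32 members, 0 were 2-fold higher and 1 was lower in the RNA-seq KD, a share of 3.12%, where 8.31% of all 13235 genes were 2-fold higher and 7.71% lower (16.0% in either direction). The median log2 ratio of the members was 0.011, against -0.009 over all genes. Differences short of 2-fold were those of UBE2T (0.75), UBE2Q2 (-0.70), UBE2V2 (-0.59) and UBE2C (0.59). UBE2M, at 0.57, had 1404 counts in KD and 724 in Ctrl. UBE2L6 stood at -0.04, with 1235 and 968 counts. Most other members lay between -0.34 and 0.48. With trends over transcript length and GC content removed, UBE2V2 stood at 0.01.

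The levels per transcript length, as deposited FPKM, ordered the family. UBE2D3 was highest, with 401.7 FPKM in KD and 461.7 in Ctrl. UBE2E3 came next with 174.1 and 159.1. In KD, UBE2V1 followed with 128.2 FPKM (80.98 in Ctrl), then UBE2Q1 with 120.0 (77.4) and UBE2S with 110.9 (82.9). In Ctrl, UBE2N followed, with 24.1 in KD and 107.0 in Ctrl, then UBE2E1 with 81.1 and 92.9 and UBE2V2 with 57.5 and 87.99. At the low end of the 32, UBE2O, a combined E2 and E3 enzyme, had 4.28 and 3.99, UBE2D4 had 6.19 and 6.31, and UBE2E2 had 10.7 and 11.4. With 1 library each, neighbours in this order cannot be separated. The length implied by count and FPKM differed between the libraries for UBE2K, by -0.63 on the log2 scale from the median of all genes, and it was the 1 member more than 1.5-fold off, where 4.4% of genes were.

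**Figure D4:**
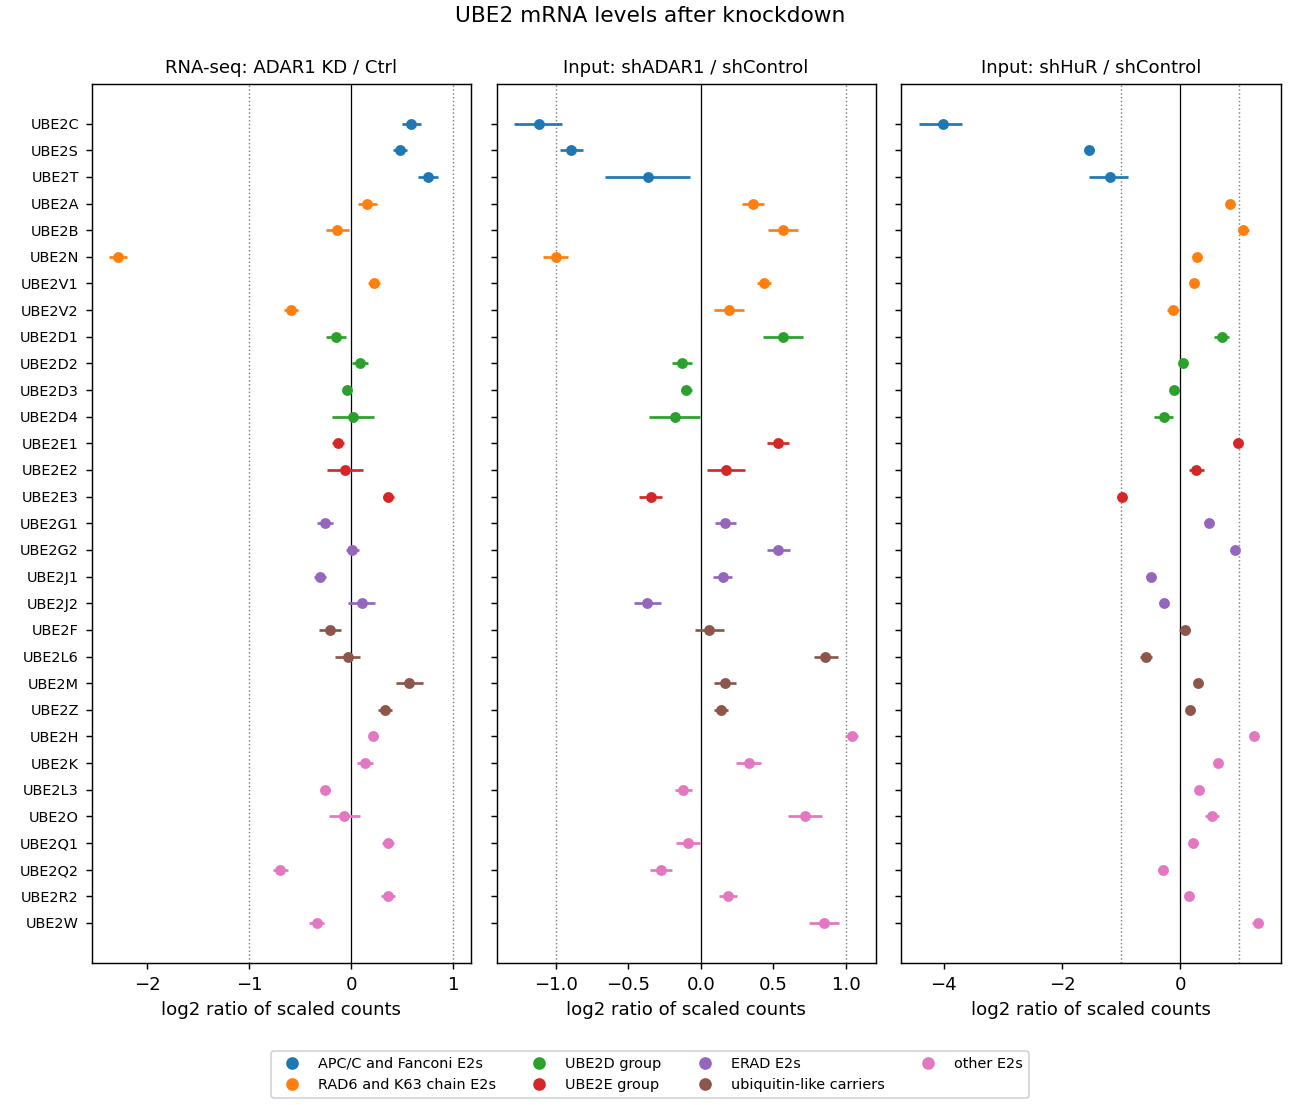
Log2 ratio of TMM-scaled counts (x axes) of members with enough counts, grouped by role (colours), in the RNA-seq KD against Ctrl and in the shADAR1 and shHuR inputs against the shControl input; bars are 95% counting intervals, dotted lines mark 2-fold, and each panel has its own x range. UBE2N is the 1 member past 2-fold in the RNA-seq at -2.29, and UBE2C, UBE2S and UBE2T are to the left of 0 in both inputs and to the right in the RNA-seq.

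UBE2C, UBE2S and UBE2T, the E2s of mitosis and of the Fanconi anaemia repair pathway, were lower in the shHuR input and partly in the shADAR1 input. UBE2C had 387, 66 and 1178 counts in the shADAR1, shHuR and shControl inputs. Its log2 ratio to shControl was -1.12 in shADAR1 (interval -1.29 to -0.95) and -4.00 in shHuR (-4.42 to -3.69). UBE2S had 1762, 1451 and 4580 counts, with ratios of -0.89 and -1.54. UBE2T, which monoubiquitinates FANCD2, had 152, 110 and 274 counts, with ratios of -0.36 (-0.66 to -0.07) and -1.19 (-1.54 to -0.88). All 3 were lowest in shHuR and highest in shControl. In the precipitates of the same lines, UBE2C had 961, 13 and 2603 counts and UBE2T 90, 8 and 257.

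In the RNA-seq KD, the same 3 genes had ratios of 0.59, 0.48 and 0.75, with 2999, 4467 and 2725 counts in KD against 1523, 2450 and 1236 in Ctrl. Values of other cell-cycle genes stand beside these. Of 25 listed cell-cycle genes, 0 were 2-fold higher and 14 lower in the shADAR1 input, 0 and 24 in the shHuR input, and 2 and 1 in the RNA-seq KD. Over all genes, 9.14% were higher and 10.3% lower in the shADAR1 input, 12.2% and 15.6% in the shHuR input, and 8.31% and 7.71% in the RNA-seq KD. Their summed level was 525.6 CPM in the shADAR1 input, 142.9 in the shHuR input and 1026 in the shControl input, and 3116 in KD against 3306 in Ctrl. Such a sum is weighted by the most abundant genes. In the RNA-seq KD, 20 of the 25 stood above 0, with a median log2 ratio of 0.325, against -0.009 over all genes. In the shADAR1 and shHuR inputs 0 of them did, with medians of -1.094 and -3.801. The part of the proportion of dividing cells in these ratios was not tested, and in bulk RNA fewer cells of a kind and less RNA per cell cannot be told apart.

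The promoters of UBE2T and UBE2S are shown because both mRNAs were lower in the same input libraries. They are RefSeq windows on GRCh38.p14 from 250 bases before to 50 bases after the gene's start, on the gene's strand, UBE2T at chr1:202341887-202342186 (minus) and UBE2S at chr19:55407739-55408038 (minus). Capitals mark CCAAT, its complement ATTGG, and TTTGAA, motifs known from cell-cycle promoters, which were searched on both strands.
UBE2T: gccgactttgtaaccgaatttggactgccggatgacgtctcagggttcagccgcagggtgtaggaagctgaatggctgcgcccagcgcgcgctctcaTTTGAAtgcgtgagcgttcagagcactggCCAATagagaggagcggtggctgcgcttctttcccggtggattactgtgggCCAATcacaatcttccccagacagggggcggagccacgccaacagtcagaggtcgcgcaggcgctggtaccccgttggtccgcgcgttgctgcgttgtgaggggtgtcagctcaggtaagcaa
UBE2S: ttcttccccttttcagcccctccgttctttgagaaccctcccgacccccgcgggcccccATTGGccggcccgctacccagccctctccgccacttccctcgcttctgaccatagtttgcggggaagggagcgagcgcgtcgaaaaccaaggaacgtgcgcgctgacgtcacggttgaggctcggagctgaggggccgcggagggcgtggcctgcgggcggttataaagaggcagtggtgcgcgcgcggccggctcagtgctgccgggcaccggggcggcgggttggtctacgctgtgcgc

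The UBE2T window holds CCAAT at 2 places and TTTGAA at 1, and the UBE2S window holds CCAAT at 1 place on the other strand. Of 35116 promoters in the table, 34.6% hold CCAAT, 15.2% TTTGAA and 5.90% both. Of 39 promoters of the members, 28.2% hold CCAAT, 7.69% TTTGAA and 7.69% both. The UBE2F window also holds CCAAT at 2 places and TTTGAA at 1, with log2 ratios of 0.06 and 0.07 in the shADAR1 and shHuR inputs. UBE2C had no window among them.

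Some other members were 2-fold higher in the inputs of the knockdown lines, at shares below those of all genes. The shares were 3.12% of the members in shADAR1 and 9.38% in shHuR, against 9.14% and 12.2% of all genes. In the shADAR1 input, 1 of 32 members was 2-fold higher and 1 lower, a share of 6.25%, where 9.14% of all 13192 genes were higher and 10.3% lower (19.4% in either direction). In the shHuR input, 3 were higher and 3 lower, or 18.75%, where 12.2% of 13390 genes were higher and 15.6% lower (27.8%). Both ratios use the same shControl input. The median ratio of the members was 0.158 in shADAR1 and 0.195 in shHuR, against -0.028 and -0.018 over all genes.

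UBE2H, the E2 of the CTLH ligase complex, had 10148, 15182 and 6905 counts in the shADAR1, shHuR and shControl inputs, with log2 ratios of 1.04 (interval 0.997 to 1.09) and 1.25 (1.21 to 1.29). The shADAR1 value is under 2-fold at 0.93 with scaling by total counts. UBE2W had 1791, 3192 and 1392 counts, with ratios of 0.85 (0.75 to 0.95) and 1.31 (1.22 to 1.40). UBE2B, the RAD6 enzyme of DNA damage tolerance, had 1500, 2751 and 1419 counts, with ratios of 0.57 (0.46 to 0.67) and 1.07 (0.98 to 1.16). All 3 were highest in shHuR and lowest in shControl. In the RNA-seq KD these genes stood at 0.21, -0.34 and -0.14, with 9896, 2980 and 1466 counts against 6514, 2878 and 1232 in Ctrl. In the shADAR1, shHuR and shControl precipitates, UBE2H had 11563, 6479 and 8014 counts and UBE2B 2353, 2178 and 3048.

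The UBE2E trio was split here as well. UBE2E1 had 2968, 5246 and 2875 counts in the shADAR1, shHuR and shControl inputs, with log2 ratios of 0.53 and 0.98 (interval 0.92 to 1.05 in shHuR), and UBE2E3 had 2089, 1726 and 3720, with -0.35 and -0.99 (-1.08 to -0.91 in shHuR). UBE2E2, with 873, 1213 and 1085 counts, stood at 0.17 and 0.28. In the RNA-seq KD the 3 genes stood at -0.13, -0.07 and 0.36 for UBE2E1, UBE2E2 and UBE2E3, with 5270, 599 and 7359 counts in KD against 4397, 479 and 4372 in Ctrl. None passed 2-fold in these comparisons with TMM scaling, and in both inputs UBE2E1 lay above shControl and UBE2E3 below it. In the shHuR input, UBE2E3 was past 2-fold at -1.03 both with total counts and with trends over transcript length and GC content removed, and UBE2E1 reached 2-fold with median-of-ratios factors.

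UBE2L6, the ISG15 carrier, had 2705, 1289 and 2087 counts in the shADAR1, shHuR and shControl inputs, with log2 ratios of 0.86 (interval 0.78 to 0.94; 1.16 with trends over transcript length and GC content removed) and -0.58 (-0.68 to -0.48). The NEDD8 carrier UBE2M had 2672, 3812 and 3334 counts (0.17 and 0.31). With those trends removed, UBE2L6 stood at -0.36 in shHuR and UBE2M reached 2-fold higher there. UBE2L6 was thus highest in shADAR1 and lowest in shHuR, with the 2 ratios on either side of 0. Of its pathway, the ISG15 ligase HERC5 stood at 2.71 in the shADAR1 input, from 56 counts against 10 in shControl, ISG15 at 0.72, the E1 enzyme UBA7 at 0.02 and USP18, which removes ISG15, at -0.32. In the shHuR input ISG15 stood at -0.32, UBA7 at -1.93 and USP18 at -2.33, while HERC5 had fewer than 50 counts in both libraries and is given no ratio. In the RNA-seq KD, HERC5 stood at 1.22 (70 counts against 22), USP18 at 1.37 (574 against 169), ISG15 at 0.17 and UBA7 at -1.29. UBE2L6 was at -0.04 there. USP18 thus lay on opposite sides of 0 in the RNA-seq KD and the shADAR1 input.

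ADAR1 knockdown was tested over both experiments, with the KD and Ctrl libraries and the shADAR1 and shControl inputs in 1 fit and the experiment as block. Of the 32 members, 0 changed in edgeR's quasi-likelihood test at an adjusted p of 0.05, where 0.0938% of 15994 genes did, and 1 had an unadjusted p under 0.05, where 4.76% did. DESeq2 called 0 members as well. That 1 gene was UBE2N, with a log2 change of -1.65 (SE 0.47; edgeR adjusted p = 0.526), lower in 2 of 2 pairs. Across the alternative fits its adjusted p ran from 0.0754 with DESeq2 to 1 in edgeR without the block. UBE2H had a change of 0.62 (SE 0.46), UBE2Q2 -0.49 (SE 0.42) and UBE2L6 0.41 (SE 0.44), each with an edgeR adjusted p of 0.9998. The fit has 1 residual degree of freedom, and its p-values reflect the variation among these 4 libraries alone, which may be technical.

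The partners of the E2s were read from a list of 68 other genes of the ubiquitin system. In the RNA-seq KD, 4 were 2-fold higher and 6 lower, in the shADAR1 input 5 and 1, and in the shHuR input 4 and 3 of 67, while in the joint edgeR test 0 of 68 changed and 1 had an unadjusted p under 0.05, where 4.76% of all genes did. Past 2-fold in either direction were 14.7%, 8.82% and 10.4% of the list in these 3 comparisons, against 16.0%, 19.4% and 27.8% of all genes. UBA1, the main ubiquitin E1, stood at -0.11, 0.45 and 0.38 in the same comparisons. UBA6, the second ubiquitin E1, which loads UBE2Z, stood at -1.04, 0.41 and 0.10, and UBA7 at -1.29, 0.02 and -1.93. CDC20, the APC/C activator of mitosis, stood at 0.54, -1.58 and -4.38, beside its E2s UBE2C and UBE2S. The mRNA of the ubiquitin precursor UBB was depleted in the HuR precipitates, with log2 enrichments of -3.45, -2.26 and -3.57 in shADAR1, shHuR and shControl. UBA6 was enriched, at 2.41, 2.18 and 3.00 in the same lines, but the other E1 genes were not. UBA1 stood at -2.513, -1.415 and -3.122, and UBA7 at -2.558, -1.031 and -2.935. Of the 9 E1 genes listed, 8, 7 and 6 were depleted 2-fold in these lines. Depleted 2-fold were 51.5%, 37.3% and 47.8% of the whole list, against 37.5%, 25.3% and 38.3% of all genes.

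Overlap and copies limit some members. UBE2V1 shares 42.9% of its exon length on the same strand with the readthrough gene PEDS1-UBE2V1, so its counts are uncertain. UBE2A (18.1%) and UBE2D4 (15.5%) overlap genes on the opposite strand, and UBE2F (16.2%) one on its own. Among the pseudogenes, UBE2CP5 had 7 to 162 counts per library and UBE2Q2P1 25 to 247, and how the authors' counting divided reads between these and the members was not tested.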

How the data were processed

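Each of the 8 groups held 1 library, assigned by the sample titles. The authors deposited expected counts per gene from RSEM 1.2.3 for both experiments; per the submitters' processing notes the build was hg19, with GRCh37 also given for the precipitation. The RNA-seq table also holds the authors' deposited FPKM. Those notes also list DESeq2 for the RNA-seq libraries. Libraries were prepared by the KAPA RNA HyperPrep kit and the precipitates with the Magna RIP kit, per the labels' protocols. The aligner, annotation release and strand setting are not given in the sources used here. The deposited expected counts were whole numbers.

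Gene symbols came from the gene name table and GENCODE 29 and covered 90.6% of 57736 IDs. Library pairs were compared as log2 ratios of counts scaled by TMM within each table, with a prior count of 2 and the exact conditional binomial interval at 95%, for genes with at least 50 counts in 1 of the libraries. Differences between a pair of libraries were counted at 2-fold, and differences in enrichment between lines at 1.5-fold. The joint test of ADAR1 knockdown used edgeR 4.0.16 (glmQLFit, glmQLFTest, filterByExpr, TMM, Benjamini-Hochberg adjustment), with the experiment as block, which the labels give. Its code was run on simulated data without gene differences between the experiments, so that run does not show the power of the test on these libraries. Alternatives were total counts, median-of-ratios factors, other prior counts and filters, removal of trends over transcript length and GC content, FPKM, and DESeq2 1.42.0. 3′UTR features came from 1 GENCODE 29 transcript per gene (GRCh38), the one with the longest 3′UTR. Transcript length and GC content came from the longest transcript and exon overlaps from all exons of a gene. No coordinates of the files were used. Promoters came from RefSeq.

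The members and lists were chosen with earlier results of these data known. Values in every library are given for members past 2-fold in a knockdown comparison, the UBE2E trio, the 3 highest and 3 lowest in mean enrichment, and UBE2C, UBE2S, UBE2T, UBE2L6, UBE2M and UBE2N for their roles. Some genes are counted but not reported here by name. Non-members are named from the lists, at most 3 a list. The width of an interval follows from the gene's own counts in the libraries compared. Total counts per library ran from 28390935 to 50711218, and reads carried no molecular identifiers that the sources name.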

Additional observations from a re-analysis of the deposited data

Results flagged for a closer look

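UBE2C stood at a log2 ratio of 0.59 in the RNA-seq KD against Ctrl and at -1.12 in the shADAR1 input against the shControl input, so that both ADAR1 knockdowns differed from their controls in opposite directions. Each ratio rests on 1 pair of libraries, and the difference between them was not tested.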

How the results depend on the processing

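With scaling by total counts, 0 members were 2-fold higher and 3 lower in the shADAR1 input, and with median-of-ratios factors 0 and 2. Without a filter on low counts, 2 members were lower in the RNA-seq KD, UBE2N and UBE2L5, where UBE2L5 had 0 counts in KD against 2 in Ctrl. With total counts, 6 members were enriched and 15 depleted in shADAR1, 17 were depleted in shHuR and 11 in shControl. All genes moved down with this scaling, to medians of -1.112, -1.248 and -1.112 in these lines. With trends over transcript length and GC content removed, 7 were depleted in shHuR, and the enrichment changed sign for UBE2J2 (0.10 in shADAR1, 0.44 in shControl) and UBE2K (-0.01 in shADAR1). At 2-fold instead of 1.5-fold, the enrichment of 1 member was higher and of 10 lower in shHuR than in shControl, and of 4 lower in shADAR1. The causes were not tested. Shares of all genes at these other settings are not given here, so nothing about the members is read from these counts. With those trends removed, UBE2C (-0.90) and UBE2H (0.90) in the shADAR1 input and UBE2B (0.88) in the shHuR input were under 2-fold. With them removed or with other scalings, UBE2N in the shADAR1 input ran from -1.20 to -1.07, past 2-fold. In the joint test, 0 members changed in every alternative fit. Without the experiment as replicate block, UBE2N had a log2 change of -1.57 and edgeR an adjusted p of 1. Leaving out 1 line moved the mean enrichment of UBE2N between 3.83 and 4.28, that of UBE2E2 between 3.09 and 3.63 and that of UBE2S between -3.02 and -1.87, and put UBE2T at 0.08 without shHuR. Values of UBE2C and UBE2T in the shHuR precipitate rest on 13 and 8 counts.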
